A study of Homo sapiens with 4 samples.

Results

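Glucose enters a cell through facilitative transporters of the SLC2A family, is trapped by hexokinase and is broken down to pyruvate and lactate by the glycolytic enzymes. The genes described here are 10 members of that route, namely the transporters SLC2A1 (GLUT1) and SLC2A3 (GLUT3), the early enzymes HK2 and PFKP, the later enzymes ALDOA, GAPDH, PGK1, ENO1 and LDHA, and TXNIP, an arrestin-like protein that holds glucose transporters back from the cell surface. They were chosen by name for their place in the pathway, with earlier results of these data already known. All 10 were found by exact symbol among the 25066 genes with deposited values. GLUT1 is the main transporter of activated lymphocytes, and HK2 carries out the first step of glucose use in many tumors. ALDOA, GAPDH, PGK1 and ENO1 act in that order on the way to pyruvate, and LDHA turns pyruvate into lactate. TXNIP is itself transcribed in response to glucose, through the factors MondoA and ChREBP.

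The cells were NUDUL1, a human lymphoma line of the germinal center type (GCB-DLBCL). All 4 libraries came from a single-cell clone with doxycycline-inducible Cas9 that had also been transduced with Tbxa2r, a thromboxane receptor coupled to Gα13, and all were treated with the stable thromboxane analog U46619 at 10 nM for 24 h. The groups differed in the guide RNA, a control sgRNA in 2 libraries and a GNA13 sgRNA in 2 libraries labelled GNA13-deficient, so the comparison asks how these genes stood when the signal met cells with and without intact GNA13. No untreated cells were measured. The libraries are described as duplicates and nothing says that they came from separate cultures, so the p values measure the spread between these libraries, which may be technical. The authors mapped 29209544 to 31537955 reads per library and deposited normalized reads on the log2 scale, and values below are on that scale unless stated. On the deposited scale 1 unit is a 2-fold difference. GNA13 itself read 12.46 and 12.45 in the control libraries and 13.10 and 13.11 in those labelled GNA13-deficient, so the targeted transcript was more abundant under the GNA13 guide, and each direction below rests on the labels. The 7 B cell markers examined had reads in all 4 libraries, with summed reads of 56232 and 62241 in the control and 53531 and 54964 in the others. Of the 4 T cell markers, CD3D and CD3E were at 0 in all 4 libraries, and the list summed to 19 to 24 reads in the control and 1 to 9 in the others. The 3 myeloid markers summed to 99 and 101 reads against 24 and 21, and the 3 epithelial and stromal markers to 45 and 50 against 104 and 105. Most control reads of each of these 3 lists came from a single gene. CD247 had 24 and 19 reads in the control and 8 and 1 in the others. LYZ had 83 and 83 against 11 and 17, and EPCAM 37 and 46 against 88 and 97. These small sums moved with the groups, and their part in the results below was not tested.

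Under the GNA13 guide, ALDOA and ENO1 were higher than in the control libraries, SLC2A1, HK2 and TXNIP were lower, and the other 5 of the 10 genes did not pass the test. In bulk RNA, fewer cells that express a gene and less of its RNA per cell cannot be told apart. These 5 calls (adjusted p under 0.05 from limma, Benjamini-Hochberg over 16945 genes tested) stood in a comparison in which 29.7% of all genes were called, 13.1% higher and 16.6% lower. The called share was 41.9% among the 2220 genes at least as abundant as SLC2A1, the lowest of the genes other than SLC2A3. These shares are the background for the counts of every list below. The groups did not overlap for 9 of the 10 genes, 6 higher and 3 lower, where 65.3% of all genes tested did not overlap. The median difference over the 10 genes was 0.23, against a median of -0.02 over all genes tested. Among the 2220 abundant genes above it was 0.10. In the plot of the values by library, the points of SLC2A1, HK2 and TXNIP lie lower under the GNA13 guide, those of ALDOA, GAPDH and ENO1 lie higher, and those of PGK1 overlap.

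**Figure D1:**
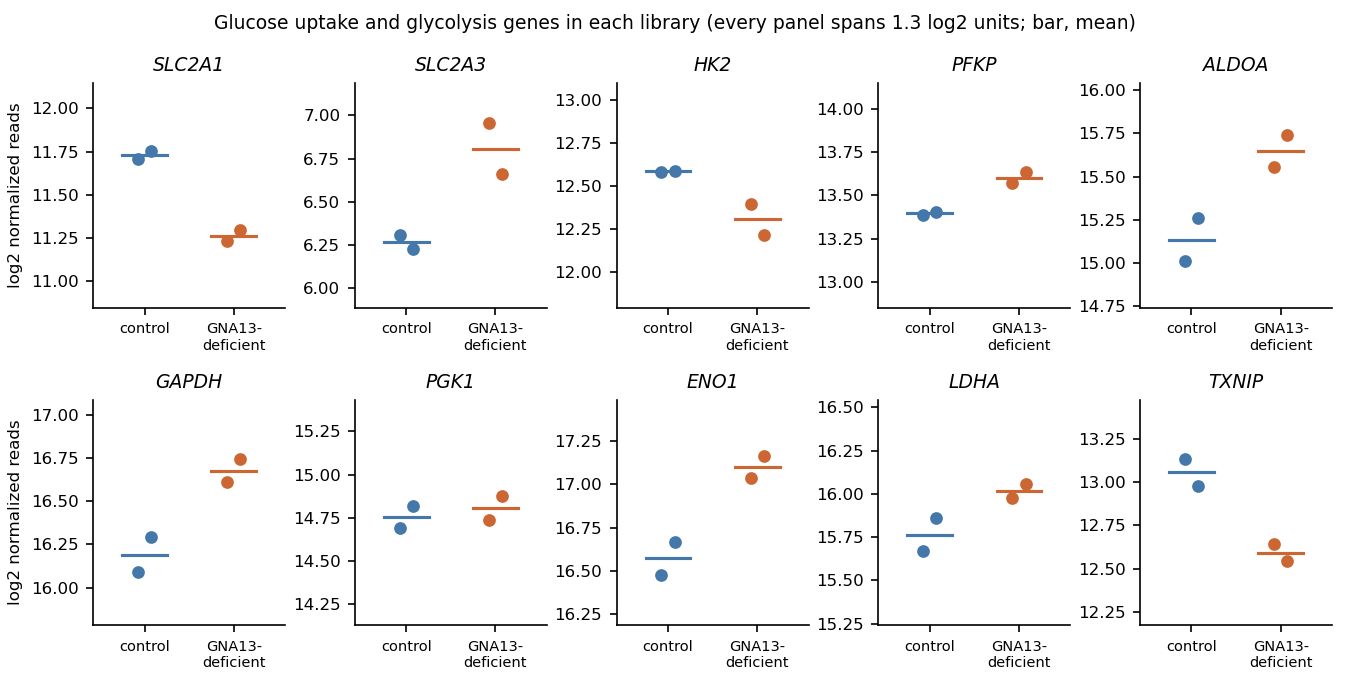
Log2 normalized reads of each of the 10 genes in the 2 control libraries (blue points) and the 2 libraries labelled GNA13-deficient (orange points), with bars at the group means and each panel spanning the same range on its own axis. SLC2A1, HK2 and TXNIP are lower and ALDOA, GAPDH and ENO1 higher in the libraries labelled GNA13-deficient, while PGK1 runs from 14.69 to 14.82 in the control and from 14.74 to 14.88 in the GNA13-deficient libraries.

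The promoters of these genes are printed first, since the route is known for control by the hypoxia factor HIF-1, by MYC and, for TXNIP, by MondoA and ChREBP. The 250 bases before the canonical transcript start of each gene were read from GRCh37, the build of the deposited values, with starts from GENCODE. The motifs were searched on both strands, and a match is a description of the letters and not a bound site. A pair of CACG half-sites with 7 bases between them, the core of the carbohydrate response element, was found in TXNIP alone among the 10 genes, and in 0.661% of 19812 promoters. The TXNIP match lies at -88 to -74 from the start, on the plus strand of chromosome 1 (chr1:145438382-145438436), with the half-sites in capitals.
TXNIP: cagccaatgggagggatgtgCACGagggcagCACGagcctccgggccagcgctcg
The E-box CACGTG, which MYC and its relatives bind, was found in LDHA alone among the 10 genes and in 7.87% of all promoters. LDHA holds 2 copies, at -185 to -180 and at -87 to -82 from the start (chr11:18415905-18416048, plus strand), both in capitals.
LDHA: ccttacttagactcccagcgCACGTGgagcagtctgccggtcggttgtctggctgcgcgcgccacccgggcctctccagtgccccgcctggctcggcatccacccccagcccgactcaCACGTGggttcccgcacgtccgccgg
ACGTG, 1 form of the shorter core of the hypoxia response element, also lies inside every CACGTG. It was found in 5 of the 10 genes (HK2, ALDOA, GAPDH, PGK1 and LDHA) and in 20.5% of all promoters. The form GCGTG was not searched and is not marked. ACGTG is shown for HK2, which was lower, and for PGK1, whose groups overlapped, with it or its reverse complement in capitals. The stretches are chr2:75061005-75061049, chr2:75061186-75061230 and chrX:77359523-77359586, all plus strand. The distal HK2 stretch overlaps an exon of HK2-DT, a noncoding RNA of the other strand.
HK2, distal: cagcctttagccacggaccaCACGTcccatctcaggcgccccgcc
HK2, proximal: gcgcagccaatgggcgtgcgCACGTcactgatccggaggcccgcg
PGK1: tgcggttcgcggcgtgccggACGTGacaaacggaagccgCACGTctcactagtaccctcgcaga

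The genes that hold ACGTG thus included one that was lower (HK2), one that was higher (ALDOA) and 3 that did not pass the test. The GC box GGGCGG, bound by SP1, was in 7 of the 10 genes and in 59.2% of all promoters. SLC2A1, SLC2A3, PFKP and ENO1 held none of the other motifs searched in this window, which says nothing of other forms or of sites elsewhere.

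**Figure D2:**
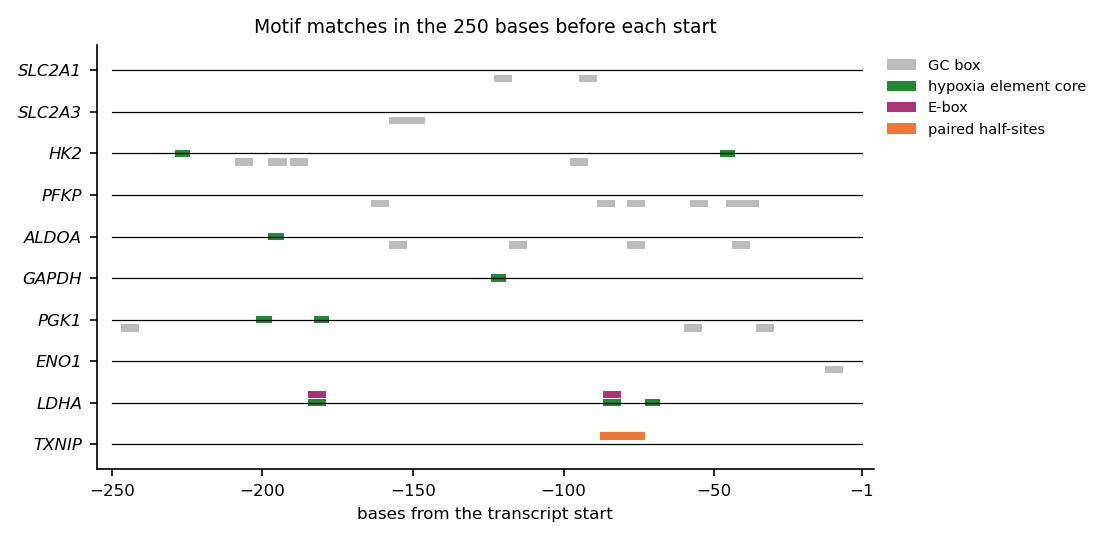
Positions of the motif matches in the 250 bases before the start of each of the 10 genes, in bases from the transcript start, with 1 color for each motif. The paired half-sites appear in TXNIP, the E-boxes in LDHA, and the hypoxia element core in its form ACGTG in HK2, ALDOA, GAPDH, PGK1 and LDHA.

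The order of the genes by level spans a wide range. Per kilobase of the canonical transcript, GAPDH was the most abundant in the control libraries with a mean log2 level of 15.83, followed by ENO1 at 15.74, LDHA at 14.60, ALDOA at 14.42, PGK1 at 12.49, PFKP at 12.005, TXNIP at 11.52, HK2 at 10.09, SLC2A1 at 9.97 and SLC2A3 at 4.33. On the same scale GAPDH read 15.73 and 15.93 and ENO1 15.65 and 15.83 in the control libraries, so that these neighbours overlapped, as did LDHA (14.50 and 14.70) and ALDOA (14.30 and 14.54). HK2 (10.09 and 10.09) and SLC2A1 (9.95 and 9.99) lay close together without overlapping. In the libraries labelled GNA13-deficient the order was the same except that ALDOA, at a mean of 14.93, stood above LDHA, at 14.85, where the libraries again overlapped.

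SLC2A1 (Entrez 6513; GRCh37 chr1:43391024-43424539, minus strand), the GLUT1 transporter, read 11.71 and 11.75 in the control libraries and 11.23 and 11.30 in those labelled GNA13-deficient. Both GNA13-deficient libraries lay below both controls, by a margin several times the gap between duplicates. The log2 difference was -0.47 (standard error 0.05, adjusted p = 0.00514 from limma), a level 1.38-fold lower, from 3283 and 3507 reads in the control against 2348 and 2336 reads. A difference of at least this size was seen in 39.9% of all genes tested. SLC2A3 (Entrez 6515; chr12:8071826-8088783, minus strand), the higher-affinity GLUT3, went the other way from a far lower level, with 6.31 and 6.23 in the control and 6.96 and 6.66 in the GNA13-deficient libraries. Its groups did not overlap, but it rested on 76 to 121 reads per library and the difference of 0.54 (standard error 0.20) did not pass the test (adjusted p = 0.105 from limma). It passed under quantile normalization (0.96, adjusted p = 0.0137 from limma) and after centring each library on its median (0.75, adjusted p = 0.0356 from limma). SLC2A14, a near-identical copy of SLC2A3 that could share its reads, had 3 reads in 1 library and was listed at 0 in the other 3. Within each library SLC2A1 exceeded SLC2A3 by 5.40 and 5.53 in the control and by 4.28 and 4.64 in the GNA13-deficient libraries, a change of -1.01 that is given as a description.

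Of the 12 other SLC2A genes, 9 were tested, 1 was called higher and 4 lower, with a median difference of -0.39. SLC2A5, the fructose transporter GLUT5, showed the clearest fall, from 11.34 and 11.38 to 9.65 and 9.76, and was 3.14-fold lower (log2 difference -1.65, standard error 0.06, adjusted p = 0.000802 from limma). SLC2A6, an orphan transporter of lysosomes, was lower by 0.56 and SLC2A8, an intracellular transporter, was higher by 0.66 (adjusted p = 0.00597 and 0.0170 from limma). SLC2A9, the urate transporter, had 27 and 22 reads in the control libraries and 0 and 3 in the others, and SLC2A7 had 6 and 6 reads against 1 and 0. Both were called lower, at read numbers too low for a fold to be given.

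HK2 (Entrez 3099; chr2:75061254-75120486, plus strand), which phosphorylates glucose at the outer mitochondrial membrane, read 12.58 and 12.59 in the control libraries and 12.40 and 12.22 in those labelled GNA13-deficient. The controls were nearly equal and both GNA13-deficient libraries lay below them, 0.18 apart from each other. HK2 differed by -0.28 (standard error 0.07, adjusted p = 0.0492 from limma), or 1.21-fold, and it lost its call when each library was centred on its own median (-0.07, adjusted p = 0.506 from limma). HK1, the other broadly expressed hexokinase, was at the same level as HK2 in the control, with 12.56 and 12.64, and read 12.67 and 12.66 in the GNA13-deficient libraries, a difference of 0.07 that did not pass (adjusted p = 0.433 from limma). HK2 minus HK1 was 0.02 and -0.05 in the control libraries and -0.28 and -0.44 in the others, which did not overlap. Of the 4 other glucose kinase genes tested, the one called was ADPGK, an ADP-dependent glucokinase, lower by 0.27 (adjusted p = 0.0267 from limma), and after centring its difference was -0.058 (adjusted p = 0.563 from limma).

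PFKP (Entrez 5214; chr10:3109740-3178994, plus strand), the platelet-type phosphofructokinase that commits sugar to glycolysis, read 13.39 and 13.41 in the control and 13.57 and 13.64 in the GNA13-deficient libraries. The groups were apart but the difference of 0.21 (standard error 0.06, 95% interval 0.05 to 0.36) did not pass once adjusted (adjusted p = 0.0570 from limma). PFKP passed in 5 of the 10 alternatives that kept all libraries, among them centring (0.41, adjusted p = 0.0140 from limma) and voom on recovered reads (adjusted p = 0.0367). Under quantile normalization it was 0.04 (adjusted p = 0.646 from limma), below the median of all genes on that scale, so its sign relative to all genes changed with the scaling of the libraries. The other phosphofructokinases were PFKL, with a difference of -0.24 (adjusted p = 0.0601 from limma), and PFKM, with a difference of -0.11 (adjusted p = 0.213 from limma) that turned to 0.10 when libraries were centred on their medians. Of the 5 enzymes that set the level of the PFK activator fructose 2,6-bisphosphate, TIGAR (listed as C12orf5) was called lower, by 0.26 (adjusted p = 0.0278 from limma), and none higher (1 higher at an unadjusted p under 0.05 in limma, and none called higher by limma's voom on recovered reads). After centring TIGAR differed by -0.051 (adjusted p = 0.565 from limma), and the list then had 1 gene called higher and 0 lower.

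ALDOA (Entrez 226; chr16:30077081-30081735, plus strand), which splits fructose 1,6-bisphosphate, read 15.01 and 15.26 in the control and 15.56 and 15.74 in the GNA13-deficient libraries. The duplicates of each group were further apart than for SLC2A1, but both GNA13-deficient libraries exceeded both controls. ALDOA was 1.43-fold higher (log2 difference 0.51, standard error 0.13, adjusted p = 0.0387 from limma). GAPDH (Entrez 2597; chr12:6643683-6647537, plus strand), the next member on the route, moved by almost as much, from 16.09 and 16.29 to 16.61 and 16.74. The difference was 0.49 (standard error 0.13) and lay just past the threshold (adjusted p = 0.0502 from limma), so GAPDH is not counted among the calls. It passed in 8 of the 10 alternatives that kept all libraries, with an adjusted p of 0.0110 under quantile normalization and 0.00638 with voom, and the exceptions were no filter and no trend. The annotation names 65 GAPDH pseudogenes, and how reads shared with such copies were counted is not given in the sources used here, so the level of GAPDH is uncertain to that extent.

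PGK1 (Entrez 5230; chrX:77359745-77384792, plus strand), which makes the first ATP of the route, stood apart from its neighbours. It read 14.69 and 14.82 in the control and 14.74 and 14.88 in the GNA13-deficient libraries, so that the groups overlapped. PGK1 differed by 0.05 (standard error 0.09, adjusted p = 0.724 from limma), and the 95% interval of -0.19 to 0.29 leaves room for a difference in either direction. Under quantile normalization its sign changed (-0.0096).

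ENO1 (Entrez 2023; chr1:8921059-8938745, minus strand), the main enolase, read 16.48 and 16.67 in the control and 17.04 and 17.17 in the GNA13-deficient libraries. Both GNA13-deficient libraries lay above both controls, 1.44-fold in the mean (log2 difference 0.53, standard error 0.14, adjusted p = 0.0491 from limma), on 89711 and 105582 reads against 130887 and 136729. LDHA (Entrez 3939; chr11:18416110-18429972, plus strand) read 15.67 and 15.86 in the control and 15.98 and 16.06 in the GNA13-deficient libraries. LDHA leaned the same way as ENO1 and its groups were apart, but the difference of 0.25 (standard error 0.11, 95% interval -0.04 to 0.55) did not pass (adjusted p = 0.167 from limma), though LDHA did under quantile normalization (0.32, adjusted p = 0.0149 from limma). LDHB, which favors the return of lactate to pyruvate, differed by 0.28 (adjusted p = 0.105 from limma), and LDHA minus LDHB overlapped between the groups.

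The calls of ALDOA, ENO1 and HK2 lie close to the threshold, and those of SLC2A1 and TXNIP further from it. Without the mean-variance trend the adjusted p from limma was 0.0494 for SLC2A1, 0.0729 for TXNIP, 0.0725 for ENO1, 0.107 for ALDOA and 0.165 for HK2, and without a filter on low values SLC2A1 was again the one member called (adjusted p = 0.0347 from limma, against 0.0996 for TXNIP). With any 1 of the 4 libraries left out, 1 residual degree of freedom remained and no gene of the whole table passed the adjusted threshold in limma, while 5257 to 5600 genes had an unadjusted p under 0.05. Members with an unadjusted p under 0.05 then numbered 2 to 4, against 8 with all libraries, and the called members kept their directions. The plot of 3 scalings sets the deposited values beside quantile-normalized and median-centred ones.

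**Figure D3:**
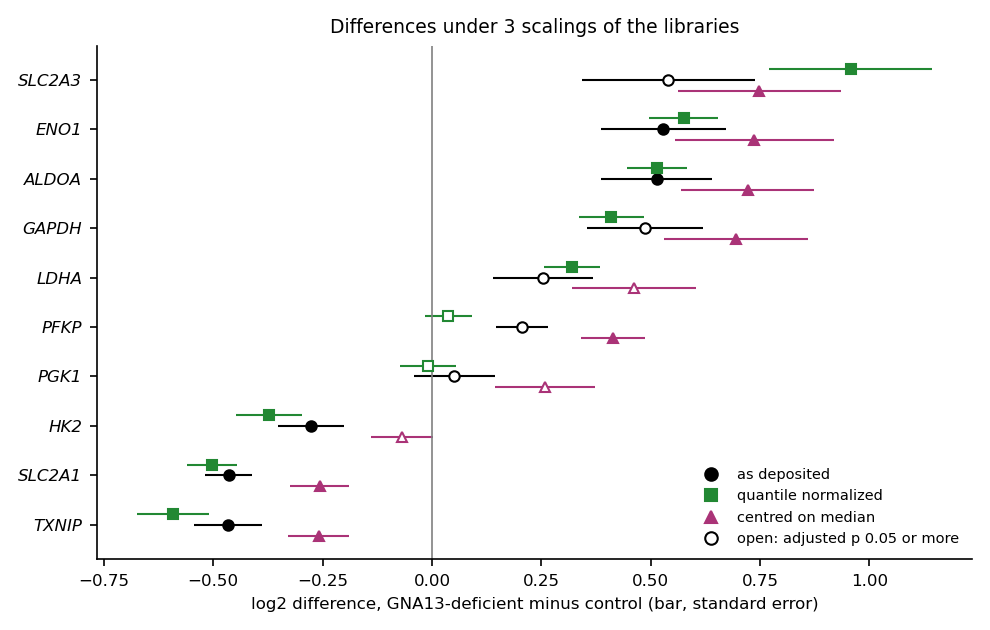
Log2 difference of each gene, GNA13-deficient minus control, with standard error bars, as deposited (circles), after quantile normalization (squares) and after centring each library on its median (triangles), with open symbols where the adjusted p was 0.05 or more. SLC2A1 and TXNIP stay below 0 and ALDOA and ENO1 above 0 with filled symbols under all 3 scalings, while HK2 loses its call when centred and PGK1 is open under all 3.

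Centring moved the median of all genes by 0.21, from -0.02 to 0.18, and the share of calls that were higher from 44.03% to 69.14%. Because it adds 1 constant to every gene's difference, the members' differences relative to the median of all genes were the same on both scales, -0.44 for SLC2A1, -0.25 for HK2, 0.54 for ALDOA, 0.55 for ENO1 and -0.44 for TXNIP. The centred differences of SLC2A1 and TXNIP were -0.26 each and remained called. Differences between 2 genes of the same library do not depend on such a constant at all. Relative to PGK1 in the same library, ENO1 stood at 1.79 and 1.85 in the control and at 2.30 and 2.29 in the GNA13-deficient libraries. GAPDH relative to PGK1 went from 1.40 and 1.47 to 1.88 and 1.87, and ALDOA from 0.32 and 0.44 to 0.82 and 0.86. The 3 ratios thus differed by 0.44 to 0.48 between the groups without overlap, and those of SLC2A1 and TXNIP by -0.52. PGK1 was taken as the yardstick after its values were seen, and the ratios carry no test.

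**Figure D4:**
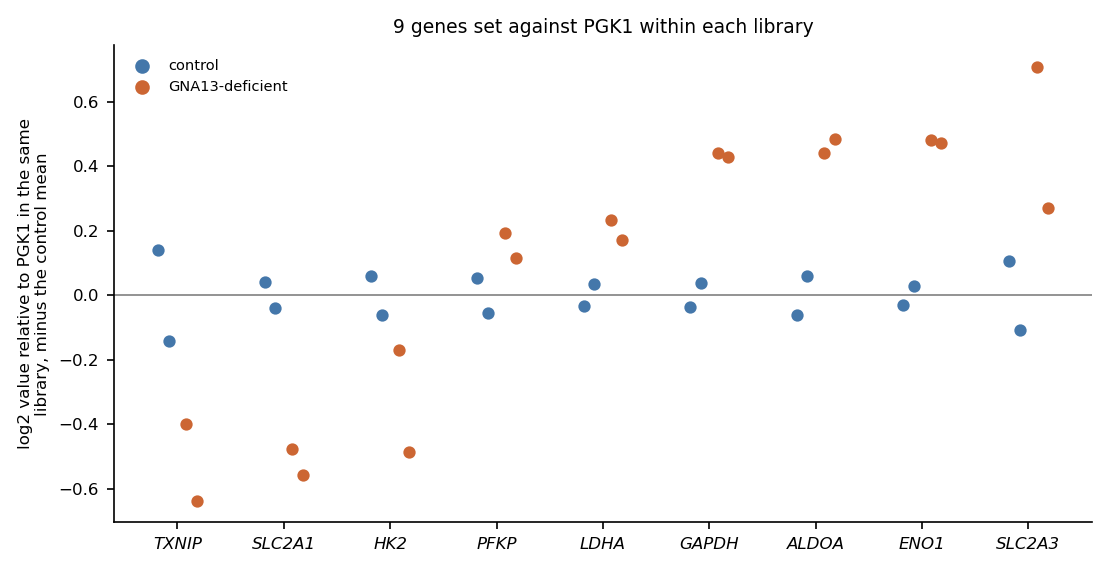
Log2 value of each of the other 9 genes relative to PGK1 in the same library, minus the control mean of that ratio, for the control (blue) and GNA13-deficient (orange) libraries. TXNIP, SLC2A1 and HK2 lie below the controls and the other 6 genes above them, and the groups of points do not overlap for any of the 9.

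TXNIP (Entrez 10628; chr1:145438490-145442635, plus strand), the uptake inhibitor whose paired half-sites are shown above, read 13.14 and 12.98 in the control and 12.64 and 12.54 in the GNA13-deficient libraries. Both GNA13-deficient libraries lay below both controls, and TXNIP was 1.38-fold lower (log2 difference -0.47, standard error 0.08, adjusted p = 0.0132 from limma). It fell by as much as SLC2A1, the transporter it restrains: SLC2A1 minus TXNIP was -1.43 and -1.23 in the control and -1.41 and -1.25 in the others, a change of 0.00 with overlapping groups. ENO1 minus TXNIP, by contrast, went from 3.34 and 3.69 to 4.395 and 4.62, a change of 1.00.

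The genes around TXNIP were mixed. Of 10 paralogs, partners and regulators, 8 were tested, 2 were called higher and 2 lower, with a median difference of -0.14. ARRDC2, an arrestin-domain paralog, fell from 9.83 and 9.77 to 9.08 and 9.0 (difference -0.76, standard error 0.07, adjusted p = 0.00325 from limma). MLXIP, which encodes MondoA, was lower by 0.32 (adjusted p = 0.0171 from limma) but differed by -0.11 after centring (adjusted p = 0.219 from limma), while its partner MLX differed by -0.12 (adjusted p = 0.395 from limma). Thioredoxin (TXN), the redox protein that TXNIP binds, was higher by 0.42 and its reductase TXNRD1 by 0.23 (adjusted p = 0.0302 and 0.0344 from limma). Under quantile normalization TXN was still called (0.31, adjusted p = 0.0376 from limma) and was the 1 gene of the list called higher, so TXNRD1 lost its call. MLXIPL, which encodes ChREBP, and the paralog ARRDC4 were listed at 0 in all 4 libraries, which does not exclude a low level. The genes whose values over the 4 libraries lay closest to those of TXNIP, each gene centred on its mean, were ZNF614, USP28 and MBTPS1, at Euclidean distances of 0.02 to 0.03 log2 units, and 130 genes lay within 0.1 of it. For SLC2A1 they were OAS1, LOC100287324 and PRMT3, with 193 genes within 0.1, so with 4 libraries many genes share each pattern.

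Of 15 glycolytic enzymes outside the 10 genes, all tested, 4 were called higher and none lower, with a median difference of 0.13. The share called in either direction was no larger than the 29.7% of all genes tested. By direction, the share called higher was above the 13.1% of all genes and the share called lower below the 16.6%. These differences from the background were not tested. PFKL and PGAM2 had negative differences at an unadjusted p under 0.05, and 2 genes were called lower by limma's voom on recovered reads. PGAM1, the phosphoglycerate mutase between PGK1 and ENO1, went from 12.83 and 13.06 to 13.42 and 13.64 and was higher by 0.59 (adjusted p = 0.0202 from limma). TPI1, which interconverts the triose phosphates, was 1.40-fold higher, GPI, which makes fructose 6-phosphate, 1.31-fold, and ALDOC, the brain-type aldolase, 1.29-fold (adjusted p = 0.0343, 0.0206 and 0.0244 from limma). The difference of GPI was 0.21 under quantile normalization and that of ALDOC 0.57 after centring, both still called. PKM (listed as PKM2), the pyruvate kinase of proliferating cells, read 16.07 and 16.23 in the control and 16.22 and 16.34 in the others, and its groups overlapped (adjusted p = 0.468 from limma). ENO2, the neuronal enolase, had 7 and 16 reads in the control and 29 and 34 in the GNA13-deficient libraries and did not pass (adjusted p = 0.0643 from limma).

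**Figure D5:**
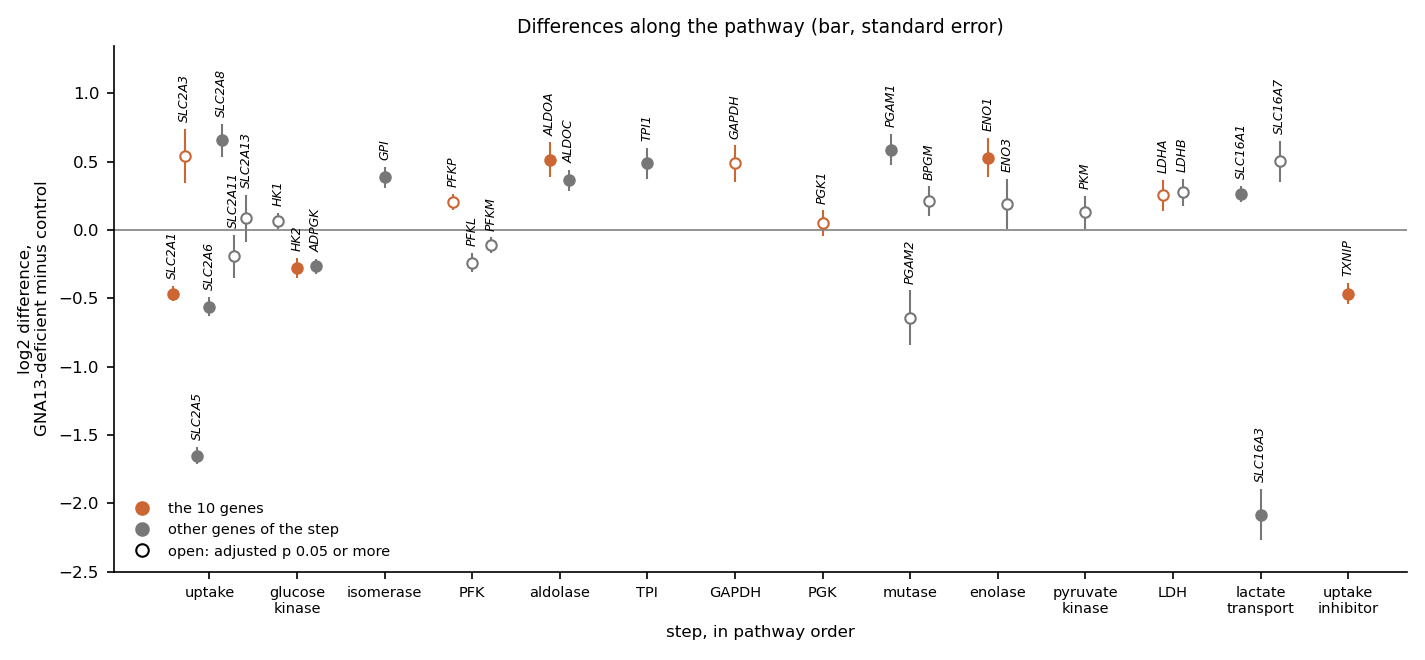
Log2 difference, GNA13-deficient minus control, with standard error bars, for 31 genes in the order of the pathway, the 10 genes described here in orange and other genes of each step with a mean log2 value of at least 7 in grey, with open points where the adjusted p was 0.05 or more. SLC2A1, HK2 and TXNIP lie below 0, ALDOA, TPI1, PGAM1 and ENO1 near 0.5, and the lactate exporter SLC16A3 at -2.08.

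Genes that handle pyruvate and lactate were read in further lists. These are RNA levels and no metabolite was measured, so the counts give no direction of pyruvate or lactate use. The counts stand beside 13.1% of all genes called higher and 16.6% lower, and no list was tested against these shares. Of 8 lactate genes tested, 3 were called higher and 1 lower, with a median of 0.27. SLC16A3 (MCT4), the lactate exporter of glycolytic cells, fell from 8.18 and 8.44 to 6.06 and 6.39 and was 4.24-fold lower (difference -2.08, standard error 0.19, adjusted p = 0.00283 from limma). SLC16A1 (MCT1), at a far higher level, was higher by 0.26, and the chaperones of these transporters, BSG and EMB, were higher by 0.41 and 0.25 (adjusted p = 0.0270, 0.0377 and 0.0279 from limma). Under quantile normalization SLC16A1 and BSG lost their calls, at 0.15 and 0.26 (adjusted p = 0.0861 and 0.0813 from limma). Of 12 genes tested for pyruvate entry into mitochondria, 5 were called higher and 1 lower, with a median of 0.18. PDHA1, the catalytic subunit of pyruvate dehydrogenase, was 1.63-fold higher and DLAT, its acetyltransferase, 1.42-fold lower (adjusted p = 0.00233 and 0.00382 from limma), and after centring DLAT was still called at -0.30. MPC2 (listed as BRP44), a subunit of the mitochondrial pyruvate carrier, was 1.47-fold higher (adjusted p = 0.0141 from limma), and PDHB, PDK3 and PDP2 were the other 3 called higher.

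In the pentose phosphate pathway, which branches off at the product of hexokinase, 1 of 7 genes was called higher and 1 lower, with a median of 0.11. PGD, which makes ribulose 5-phosphate and NADPH, went from 12.96 and 13.07 to 13.43 and 13.52 (1.37-fold, adjusted p = 0.0106 from limma). H6PD, an enzyme of the endoplasmic reticulum, was lower by 0.58 (adjusted p = 0.00428 from limma), and after centring by 0.38, still called. Of 5 gluconeogenic genes tested, 2 were called lower and none higher, with a median of -0.57. That median is the value of FBP1, which had 16 to 30 reads per library (adjusted p = 0.257 from limma). PCK2 and G6PC3, at far higher levels, differed by 0.19 and 0.11 and did not pass (adjusted p = 0.164 and 0.366 from limma). No gene of that list was higher at an unadjusted p under 0.05 in limma or called higher by voom, and 1 was called higher after centring. Pyruvate carboxylase (PC) had 68 and 89 reads in the control libraries and 13 and 6 in the others, and FBP2 had 10 and 16 against 3 and 2 (adjusted p = 0.00943 and 0.0194 from limma).

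HIF-1 is a known activator of many of the 10 genes, and its own genes and other targets were read beside them. HIF1A was at 12.95 and 12.83 in the control and 12.91 and 12.85 in the GNA13-deficient libraries, with a difference of -0.01 (95% interval -0.19 to 0.16). Of 7 pathway factors tested, VHL, which marks HIF for degradation, was called lower, by 0.37 (adjusted p = 0.0478 from limma), and none higher (1 at an unadjusted p under 0.05 in limma, none called higher by voom). After centring VHL differed by -0.16 (adjusted p = 0.226 from limma), and 3 factors were called higher and 0 lower. Of 11 hypoxia-responsive genes outside glycolysis, 1 was called higher and 5 lower, with a median of -0.33. BNIP3, a mitophagy receptor, fell from 9.19 and 9.19 to 6.17 and 6.01, or 8.58-fold (adjusted p = 0.000850 from limma), and NDRG1, MXI1, KDM3A and CA9 were the other 4 called lower, CA9 on 3 and 3 reads against 0 and 0. P4HA2, a collagen prolyl hydroxylase, had 21 and 33 reads in the control and 77 and 69 in the others and was the 1 called higher (adjusted p = 0.0219 from limma). The median of these 11 genes was thus below that of all genes and the median of the 10 genes of glucose use above it. The genes at least as abundant as SLC2A1 also had a median above it, at 0.10. The difference between the lists was not tested.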

How the data were processed

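RNA sequencing of 4 NUDUL1 libraries (TruSeq stranded mRNA) was analysed. Reads had been aligned by the authors with STAR (hg19), and the values they deposited are log2 normalized reads, with a row of library totals on a linear scale. The submitters' processing notes also name HTSeq, and the annotation, the use of strand and the normalization are not given in the sources used here. Low values are steps of 1 read (100% of values up to 100 reads within 0.1 of a whole number), which gave the reads quoted. In the second control library 1 read came to -0.023, so a listed 0 there may stand for 1 read. A listed 0 does not exclude a low level. Deposited log2 values were compared between genotypes with limma 3.58.1 under R 4.3.3, with a trended prior variance and no other term, on 16945 genes above 0 in at least 2 libraries, with Benjamini-Hochberg adjustment and a threshold of 0.05. No pseudocount was added. The pipeline was tested on simulated data in which the libraries were independent and far fewer genes changed. That test concerns the code and not the calls made here.

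The members and lists were chosen with earlier results of these data known. All 10 members are named. Of other lists, genes were named if they had 1 of the 3 largest differences among those called. The other glycolytic enzymes and the TXNIP list could be named in full. Further called genes of these lists, HK1, LDHB, HIF1A, FBP1, PCK2, G6PC3 and single marker genes were named after their values were seen. Coordinates are those of the canonical transcript in GENCODE 44 on GRCh37, with which levels per kilobase were also computed. PDP1 was not analysed here, and some results are not reported here. Alternatives were a filter at the median of the means, no filter on low values, quantile normalization, centring on library medians, pseudocounts of 1 and 10, the replicate number as a block, no variance trend, a robust prior, voom on the recovered reads and leaving out each library. Figures were drawn with matplotlib 3.10.9.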

Additional observations from a re-analysis of the deposited data

How the results depend on the processing

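Of 10 members, 5 were called, 2 higher and 3 lower. Without a filter on low values the counts were 1, 0 and 1, and without the mean-variance trend 1, 0 and 1. SLC2A1 was the member still called without a filter, and also without the trend. Quantile normalization gave 8 called (5 higher). The filter at the median of the means, which leaves out SLC2A3, gave 4 higher, centring 5 higher, and the robust prior and voom 4 higher each. The median difference was 0.23 and was 0.44 after centring. Leaving out 1 library gave 0 to 0 called in each direction, since 1 residual degree of freedom remained and the lone library of a group is assumed to vary like the other group. PGK1 turned to -0.0096 under quantile normalization and ran from -0.019 to 0.121 as single libraries were left out, below 0 without the first control or the second GNA13-deficient library (-0.013 and -0.019). PFKM turned to 0.10 after centring. The counts over all genes were 5037 as reported, 1999 without a filter and 2718 without the trend, and 4083 of 8473 genes under the stricter filter. With the replicate block 8 members were called (5 higher and 3 lower) and 6616 genes in all. GAPDH, PFKP and LDHA joined the calls (adjusted p = 0.00220, 0.0125 and 0.0163 from limma). Same-numbered libraries deviated together from their group means, with a correlation of 0.45 over 8473 genes, but no source says that the numbers pair the libraries and 2 pairs are too few to decide it, so the comparison without the block stands above. For members, alternatives that kept all 4 libraries left 72 results on the same side of the threshold, put 17 past it, took 9 back and reversed 1. For the other named genes these numbers were 254, 5, 42 and 1. The causes of these changes were not tested. SLC2A3 rests on 76 to 121 reads, and 2 libraries a group and 1 guide RNA limit every gene.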

Other observations

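GAPDH is widely used as a reference for quantitative PCR, and its difference was set against 11 other genes in common use for that purpose. Of these 11 genes, 1 was called higher (HPRT1, by 0.85, standard error 0.06, adjusted p = 0.00200 from limma) and none lower (none at an unadjusted p under 0.05 either, and none called lower by limma's voom on recovered reads), with a median difference of 0.11. After centring each library on its median, 6 of the 11 were called higher. Relative to each in the same library, GAPDH was higher in both libraries labelled GNA13-deficient than in both controls against 10 of the 11, by 0.121 against ACTB up to 0.765 against RPLP0, and lower against HPRT1, with a change of -0.36. The median change over the 11 was 0.38. TFRC and YWHAZ differed least between the groups, by 0.02 and 0.00, and PPIA by 0.02.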
